A study of Mus musculus with 4 samples.

Results

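Oligodendrocyte precursor cells of the mouse brain were chosen by a rule on marker transcripts, and 798 of 60717 barcodes of sufficient quality met it. A barcode of sufficient quality held at least 1000 unique molecular identifiers (UMIs, each a captured transcript molecule) and 500 genes, with at most 20% of its UMIs from mitochondrial genes. A precursor had to show a UMI for at least 3 of 7 markers (Pdgfra, Cspg4, C1ql1, Lhfpl3, Cacng4, Tnr and Vcan). It could hold at most 1 UMI of the fibroblast genes Col1a1, Col1a2 and Dcn together, 2 of the mature oligodendrocyte genes Mog, Mag and Ermn, and 3 of C1qa, Ctss and Cldn5, which mark microglia and endothelial cells. These 16 genes chose the cells, so their values below are descriptions.

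The cells come from droplet single-cell RNA sequencing of glia-enriched brain suspensions of male targeted-replacement mice, in which the mouse Apoe gene is replaced by the human APOE3 or APOE4 allele throughout the animal. Mice of each genotype received lipopolysaccharide (LPS), a bacterial endotoxin, as 1 intraperitoneal dose of 5 mg/kg and were examined 24 h later, or received NaCl as vehicle. Each of the 4 groups, NaCl and LPS in either genotype, is 1 library pooled from 3 mice, and no control carries the mouse allele. With 1 library per group nothing was tested. The 95% intervals given cover counting error only and leave out variation between the cells of a library. Variation between mice, dissociations or library preparations cannot be told apart from the group.

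Oligodendrocyte precursors are the proliferating, migratory glia that renew the myelinating oligodendrocytes throughout life. They are held in the precursor state by platelet-derived growth factor acting on the receptor Pdgfra, by Notch signalling and by inhibitors of differentiation such as Gpr17, which peaks in cells already committed to differentiate. They carry chondroitin sulfate proteoglycans (Cspg4, the NG2 antigen, and Vcan, versican) and the matrix glycoprotein Tnr, tenascin-R, receive synaptic input through glutamate and GABA receptors, and can express antigen-presenting and complement genes in inflamed tissue.

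Mouse Apoe could not check the genotype labels, because the human allele is expressed in its place in all 4 groups and the reads were counted against a mouse reference. It stood at 73.7, 89.2, 69.5 and 61.2 CPM (counts per 1000000 UMIs) in the lineage-positive cells defined below for APOE3 (NaCl, then LPS) and APOE4 (NaCl, then LPS), the order kept for every run of 4 values below. The APOE3 NaCl library gave 189 cells, APOE3 LPS 261, APOE4 NaCl 229 and APOE4 LPS 119. Over the whole libraries, 93.3%, 93.7% and 92.6% of deposited barcodes were of sufficient quality in the first 3 and 61.9% in APOE4 LPS, whose quality barcodes were also the shallowest, with a median of 2311 UMIs against 4150 to 5954. The chosen cells themselves differed less in depth, with medians of 2726, 2504, 3282 and 2603 UMIs and totals of 1037265, 1218250, 1430100 and 736222 UMIs. The largest single cell held 4.04%, 3.16%, 3.41% and 5.61% of these totals. Any pair of libraries shared 61 to 140 deposited barcode sequences and 0 among the chosen cells. A doublet caller marked 1404, 1268, 1069 and 0 quality barcodes, so it had not worked in APOE4 LPS, and the 53 chosen cells that it marked (19, 22 and 12 in the first 3 libraries) were kept.

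The label held for most of these cells and not for all. Among the 555 cells with 5 to 7 of the markers, 94.6% held a UMI of Olig1, Olig2 or Sox10, the transcription factors that define the oligodendrocyte lineage, which the rule had not used. In the 243 cells with 3 or 4 markers that share was 34.6%, while 42.4% held Rbfox3 and 49.4% Syt1, both neuronal genes, at a median of 6422 UMIs against 2444. The 170 cells just inside the threshold, with 3 markers, had a median of 9793 UMIs, and 19.4% of them were lineage-positive in the sense defined next. Cells with 2 markers lay just outside, and admitting them would have raised the shares of quality barcodes from 1.31%, 1.73%, 1.75% and 0.654% to 3.08%, 2.89%, 3.66% and 1.35%.

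For this reason most results are given for the lineage-positive precursors, defined after seeing the data as members with a UMI of Olig1, Olig2 or Sox10 and at most 1 of the 5 neuronal genes Syt1, Rbfox3, Stmn2, Slc17a7 and Gad2. They number 593, with 140, 211, 163 and 79 in the 4 libraries, and hold 474598, 672762, 575414 and 342924 UMIs. The other 205 members were deeper, with a median of 9199 UMIs, and 54.6% of them held Rbfox3 and 64.4% Syt1. They made up 54.2%, 44.8%, 59.8% and 53.4% of the members' UMIs, so that a sum over all 798 cells is in large part a sum over cells with neuronal transcripts.

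**Figure D1:**
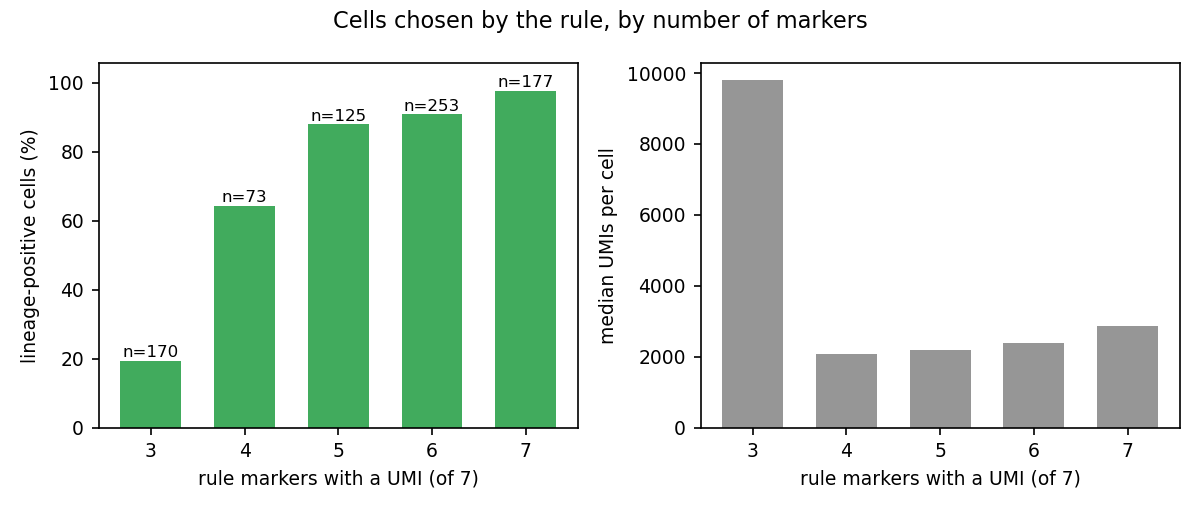
Left, share of lineage-positive cells (percent) among the cells of the rule with 3 to 7 of the 7 markers, with the number of cells above each bar; right, their median UMIs. Cells with 3 markers stand apart, with 19.4% lineage-positive and a median of 9793 UMIs, while 88% to 97.7% of cells with 5 to 7 markers were lineage-positive.

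The precursors made up a smaller share of barcodes in the APOE4 LPS library than in the other 3. In APOE3 they were 1.31% of quality barcodes (1.13 to 1.51) with NaCl and 1.73% (1.53 to 1.95) with LPS. In APOE4 they were 1.75% (1.53 to 1.99) with NaCl and 0.654% (0.542 to 0.783) with LPS. The lineage-positive cells alone were 0.972% (0.818 to 1.15), 1.40% (1.22 to 1.60), 1.25% (1.06 to 1.45) and 0.434% (0.344 to 0.541). In both readings the APOE4 LPS interval lay below the other 3. After every barcode was thinned to 1000 UMIs APOE4 LPS was again the lowest, with 1.06%, 1.59%, 1.40% and 0.489%, while the order of APOE3 LPS and APOE4 NaCl turned.

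The gap depended on the denominator. Among lineage-positive precursors, the other members and 4 other classes (astrocytes, microglia, mature oligodendrocytes and endothelial cells) together, the lineage-positive cells were 1.17% (0.986 to 1.38), 1.70% (1.48 to 1.94), 1.505% (1.28 to 1.75) and 0.664% (0.526 to 0.827), with APOE4 LPS still below the other 3. Set against mature oligodendrocytes alone (barcodes with at least 4 of 7 markers of that class), lineage-positive precursors were 4.85% (4.10 to 5.70) of the 2 classes together with NaCl and 7.20% (6.29 to 8.20) with LPS in APOE3, and 5.24% (4.48 to 6.08) and 4.70% (3.74 to 5.82) in APOE4. On this scale the APOE3 LPS library had the highest share and the 2 APOE4 libraries overlapped. A share of barcodes in a pooled, glia-enriched suspension also depends on how each cell type survived dissociation, which was not measured.

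**Figure D2:**
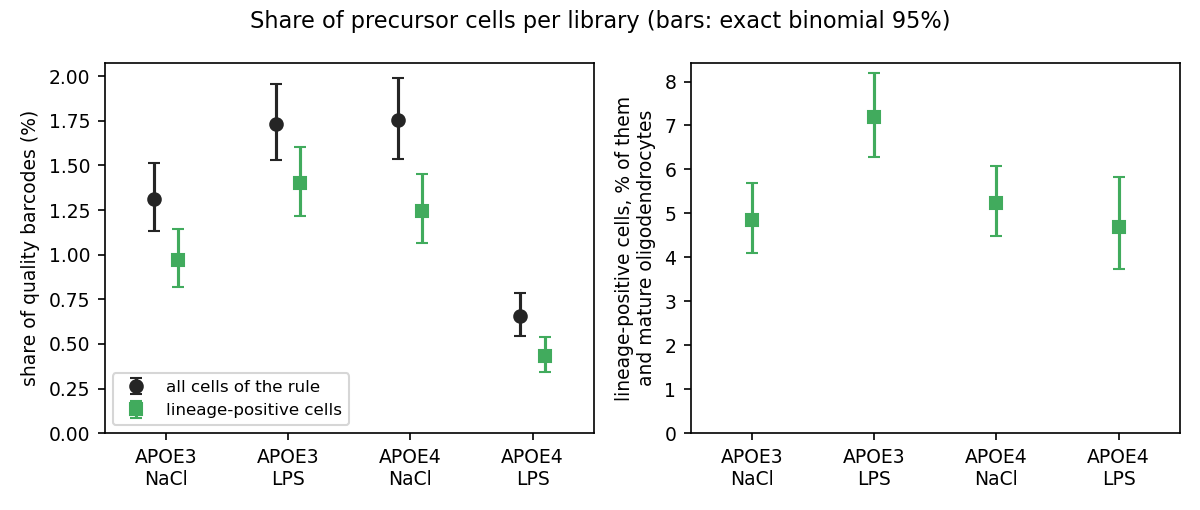
Left, share of quality barcodes (percent) in each library for all cells of the rule (circles) and for lineage-positive cells (squares); right, lineage-positive cells as a percentage of them and mature oligodendrocytes. Bars are exact binomial 95% intervals; APOE4 LPS lies below the other libraries at left (0.654% and 0.434%) and within the range of the NaCl libraries' intervals at right (4.70%).

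Gene levels were compared as CPM, which do not correct for transcript length and so compare libraries and not genes. A gene was called higher or lower when it differed at least 1.5-fold between a pair of libraries and the exact counting interval of the ratio excluded 1, among genes with at least 20 UMIs in 1 of the pair. In lineage-positive precursors LPS against NaCl gave 399 genes higher and 532 lower of 6488 in APOE3 (6.15% and 8.20% of the genes compared) and 581 higher and 550 lower of 5849 in APOE4 (9.93% and 9.40%). The median log2 ratio over all compared genes was 0.002 in APOE3 and -0.071 in APOE4. With trimmed-mean scaling factors in place of plain totals, the share of APOE3 calls that were higher went from 42.9% to 54.8%, so the balance between higher and lower genes there rests on the scaling. A ratio is given in place of a fold where a gene was not called or held too few UMIs. Counts of list members below are counts of those with enough UMIs, and a member with few UMIs could enter only through the library where it was high. Parentheses after a fold give its interval, which treats UMIs as independent. Among lineage-positive cells of APOE4 LPS the highest cell held 11.6% of the Chst2 UMIs, 12.8% of Tafa1 and 13.5% of Actb.

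By the lower bound of the fold, the complement gene C4b, described below, led the genes higher after LPS in APOE3 precursors, followed by Hif3a, Chst2, Nell2 and Tafa1. Chst2, a Golgi sulfotransferase that sulfates N-acetylglucosamine on glycans, stood at 107, 608, 130.3 and 504 CPM. It was 5.66-fold higher (4.22 to 7.73) with LPS in APOE3 and 3.87-fold higher (2.94 to 5.15) in APOE4. After thinning each cell to 1500 UMIs a UMI of Chst2 was found in 14.7%, 56.7%, 17.8% and 44.4% of cells, so the higher level was spread over many cells. Both LPS libraries lay well above both NaCl libraries.

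Tafa1, a secreted chemokine-like protein, was at 432, 1402, 415 and 1117 CPM, 3.25-fold higher (2.79 to 3.79) in APOE3 and 2.69-fold higher (2.28 to 3.17) in APOE4. Hif3a, a member of the hypoxia-inducible factor family, was at 16.9, 162, 26.1 and 143 CPM, which was 9.61-fold higher (4.71 to 22.8) and 5.48-fold higher (3.02 to 10.5). Htra1, a secreted serine protease, was at 145, 514, 177 and 475 CPM, 3.54-fold higher (2.72 to 4.65) and 2.68-fold higher (2.08 to 3.47). Cdh19, a cadherin, was at 173, 509.8, 176 and 379 CPM, 2.95-fold higher (2.31 to 3.80) and 2.16-fold higher (1.65 to 2.83). Each of these genes was high in both LPS libraries and low in both NaCl libraries.

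Further genes were called higher in both genotypes. Gpd1, the glycerol-3-phosphate dehydrogenase of the cytosol, was at 29.5, 141, 22.6 and 137 CPM, 4.79-fold higher (2.72 to 9.09) and 6.07-fold higher (3.23 to 12.2). Kcnip1, a calcium-binding subunit of A-type potassium channels, was at 133, 416, 163 and 365 CPM, 3.14-fold higher (2.38 to 4.19) and 2.23-fold higher (1.69 to 2.95). Plce1, a phospholipase C that responds to Ras, was at 221, 458, 181 and 507 CPM, 2.07-fold higher (1.65 to 2.61) and 2.81-fold higher (2.19 to 3.61). Aldh1a1, a retinaldehyde dehydrogenase found at 238, 339.7, 244 and 286 CPM in astrocytes, was at 63.2, 183, 33 and 146 CPM, 2.89-fold higher (1.93 to 4.47) and 4.42-fold higher (2.56 to 7.93). Phyhd1 was at 12.6, 77.3, 6.95 and 72.9 CPM, 6.11-fold higher (2.63 to 17.4) and 10.5-fold higher (3.62 to 41.5).

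Nell2, a secreted glycoprotein with EGF-like repeats, differed between the genotypes. Its level was 71.6, 306, 67.8 and 105 CPM, 4.27-fold higher (2.96 to 6.34) with LPS in APOE3 and a ratio of 1.55 (0.957 to 2.50) in APOE4. The difference of the 2 LPS effects, APOE4 minus APOE3 on the log2 scale, was -1.45 (-2.28 to -0.61). Only the APOE3 LPS library stood apart, and the call in APOE3 held in 10 of 10 alternative settings. These settings vary the cells kept, depth, fold, scaling and pseudocount, and the pseudocount cannot alter a call.

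**Figure D3:**
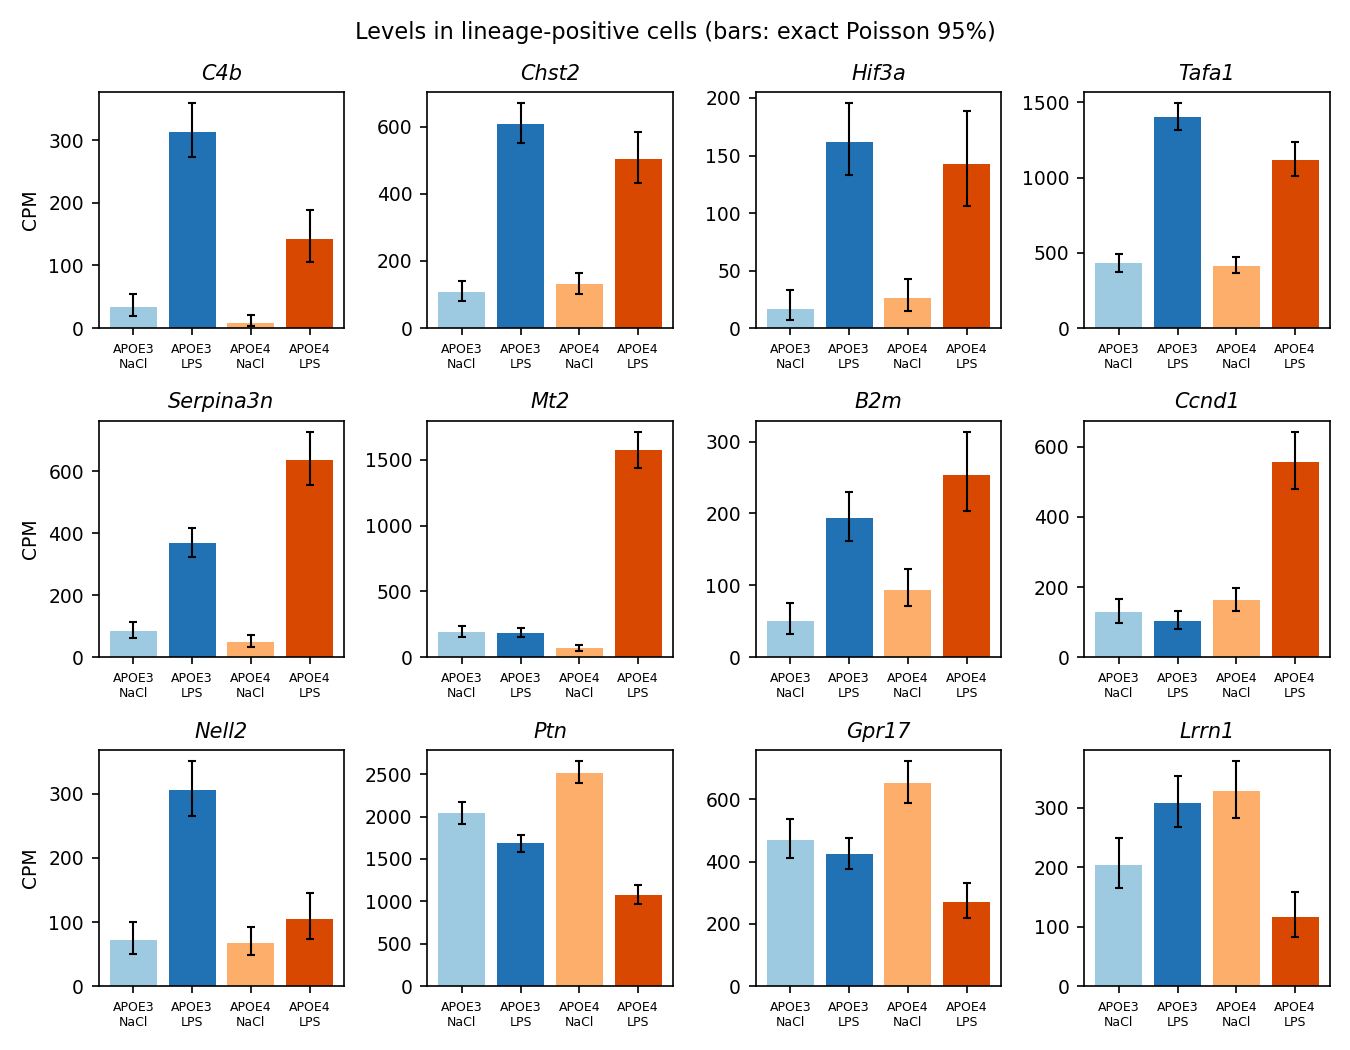
Level (CPM, from 0) of 12 genes in lineage-positive precursors of the 4 libraries; bars are exact Poisson 95% intervals of counting error. C4b, Chst2, Hif3a, Tafa1, Serpina3n and B2m are higher in both LPS libraries, Nell2 mainly in APOE3 LPS, Mt2 and Ccnd1 in APOE4 LPS, and Ptn, Gpr17 and Lrrn1 are lowest in APOE4 LPS.

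Antiviral genes of the interferon response were higher with LPS, at low levels. Of 40 listed interferon-stimulated genes 11 had enough UMIs in APOE3, with 10 higher and 0 lower and a median log2 ratio of 1.59. In APOE4 5 had enough UMIs, with 4 higher and 0 lower and a median of 1.36. Ifit3, an antiviral gene that has a near-identical neighbour (Ifit3b), was at 8.43, 63.9, 8.69 and 26.2 CPM, 7.58-fold higher (2.76 to 29.1) in APOE3 and a ratio of 3.02 (0.909 to 11.5) in APOE4. Rnf213, a large ubiquitin ligase, was at 14.7, 69.9, 20.9 and 58.3 CPM, 4.74-fold higher (2.13 to 12.4) and 2.80-fold higher (1.30 to 6.27). Its call held in 8 of 10 alternative settings in APOE3 and 4 of 10 in APOE4.

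Ifi27 was the most abundant member, at 129, 282, 151 and 245 CPM, and was 2.20-fold higher (1.64 to 2.98) and 1.62-fold higher (1.19 to 2.21). Its partner in the list Ifitm3, which blocks viral entry, was at 40, 35.7, 12.2 and 78.7 CPM, 6.47-fold higher (2.75 to 17.6) in APOE4 and a ratio of 0.891 (0.468 to 1.72) in APOE3. Ifit1, Stat2, Trim25, Herc6, Ddx58 and Rtp4 were called higher in APOE3, where they held between 22 and 38 UMIs after LPS. In APOE4 these 6 genes had too few UMIs to be compared, and their differences between the genotypes were not called. Without the cells that held at least 2 of 7 astrocyte markers, 3 genes of the list remained to be compared in APOE3, with a median of 1.72, and 2 in APOE4, with a median of -0.51. Later passages call these the cells holding astrocyte markers, although a cell with 1 such marker was kept. The helicase gene Ddx60, outside the list, was at 19, 92.2, 12.2 and 49.6 CPM and 4.86-fold higher (2.40 to 11.1) in APOE3. Of the immunity-related GTPases and guanylate-binding proteins 1 of 21 had enough UMIs in either genotype. This was Irgm1, at 8.43, 56.5, 17.4 and 72.9 CPM, 6.70-fold higher (2.41 to 25.9) and 4.19-fold higher (1.95 to 9.79).

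Genes of antigen presentation on class I molecules showed the same direction in both genotypes. B2m, the light chain shared by all class I molecules, was at 50.6, 193, 93.8 and 254 CPM, 3.82-fold higher (2.46 to 6.18) in APOE3 and 2.70-fold higher (1.90 to 3.87) in APOE4. The heavy chain H2-K1, of a family of close copies, was at 69.5, 168, 88.6 and 149 CPM, 2.42-fold higher (1.63 to 3.68) and 1.68-fold higher (1.12 to 2.52). Its call held in 8 of 10 alternative settings in APOE3 and 5 of 10 in APOE4. H2-D1, another heavy chain, was at 75.9, 199, 93.8 and 195 CPM, 2.63-fold higher (1.81 to 3.91) and 2.08-fold higher (1.43 to 3.04). They were the 3 genes called of 7 compared in APOE3 and of 3 compared in APOE4. Of 7 class II genes 0 had enough UMIs in any comparison.

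Other classes give the scale of this response. In astrocytes 27 of 38 interferon-stimulated genes were higher with LPS in APOE3 and 36 of 37 in APOE4, with medians of 0.91 and 1.73, beside 8.01% and 11.4% of all genes compared in that class. In mature oligodendrocytes 27 of 35 and 33 of 36 were higher, with medians of 0.80 and 1.95, beside 10.0% and 12.6% of all genes. In endothelial cells 8 of 40 and 11 of 39 were higher, with medians of 0.20 and 0.25, beside 10.1% and 12.9%. The larger classes pass the minimum of 20 UMIs with more genes, so these counts are not on the same footing as those of the precursors.

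The promoters of some of these genes are shown because the interferon-stimulated response element, the site that complexes of STAT and IRF factors are known to bind, has a recognisable core. The core GAAANNGAAA was searched on both strands in the 250 bases before each transcription start in RefSeq (build GRCm38.p6). It occurred for 936 of 27025 genes of the table (3.46%). Of 15 genes of the interferon, GTPase and class I lists called higher in the precursors 12 were in the table, and it occurred for 5 of them (41.7%). Over the members of the lists, called or not, it occurred for 21 of 59 genes (35.6%). The stretches around the match are printed for 4 genes, 5′ to 3′ on the strand of the gene, with the match in capitals (GAAA first on the plus strand, TTTC first where the match lies on the other strand). A match describes letters and is neither a measured site nor a cause.
B2m, chr2:122147518-122147587, plus strand: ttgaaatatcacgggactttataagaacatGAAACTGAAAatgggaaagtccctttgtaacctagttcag
Stat2, chr10:128270248-128270315, plus strand: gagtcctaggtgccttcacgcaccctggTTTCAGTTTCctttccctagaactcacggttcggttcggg
Ifit3, chr19:34583343-34583446, plus strand: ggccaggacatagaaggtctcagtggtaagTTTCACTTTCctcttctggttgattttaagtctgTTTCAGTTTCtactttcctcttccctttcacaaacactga
Ifit1, chr19:34640755-34640843, plus strand: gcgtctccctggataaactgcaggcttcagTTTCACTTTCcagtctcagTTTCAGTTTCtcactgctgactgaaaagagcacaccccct
B2m and Stat2 hold 1 match each, and Ifit3 and Ifit1 hold a pair.

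Complement C4b and the serpin Serpina3n, both named as markers of disease-associated oligodendroglia, were among the genes with the largest folds. C4b, a complement component whose reads can be shared with its near-identical neighbour C4a, was at 33.7, 314, 8.69 and 143 CPM, 9.30-fold higher (5.60 to 16.6) in APOE3 and 16.4-fold higher (6.59 to 52.9) in APOE4. In cells thinned to 1500 UMIs it was found in 3.88%, 39.3%, 1.97% and 23.8% of precursors, against 0.724%, 0.917%, 0.833% and 1.02% of endothelial cells, where its level was low (5.30, 5.24, 3.91 and 10.4 CPM). C4b was also higher in LPS mature oligodendrocytes, at 81.5, 212, 56.5 and 157 CPM, and in LPS astrocytes, at 50.9, 204, 42.6 and 127 CPM.

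Serpina3n, a secreted protease inhibitor of a family of close copies, was at 84.3, 369, 48.7 and 636 CPM, 4.37-fold higher (3.12 to 6.27) in APOE3 and 13.1-fold higher (8.79 to 20.1) in APOE4. The difference of the LPS effects was 1.57 (0.83 to 2.31) on the log2 scale. A UMI of it was found in 8.53%, 17.4%, 9.87% and 38.1% of thinned cells. Mature oligodendrocytes stood at 32.7, 329, 61.3 and 618 CPM and astrocytes at 11.8, 416, 44.6 and 726 CPM, levels of the same order as in the precursors. Of the disease-associated list 8 of 17 compared genes were higher in APOE3 and 12 of 18 in APOE4, with 0 lower in either and medians of 0.54 and 1.10. Without the cells holding astrocyte markers these medians were 1.09 over 12 genes and 0.82 over 14. That list also holds H2-D1, H2-K1, B2m, Sgk1, Apod and Cdkn1a, which other lists share.

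The response of Chst2 was larger in the precursors than in the classes beside them. Astrocytes stood at 153, 141, 171 and 196 CPM, mature oligodendrocytes at 21.9, 23.8, 28.1 and 43.1 CPM and endothelial cells at 23.7, 29.5, 16.8 and 43.2 CPM, so the LPS libraries of the precursors held the highest levels of the 5 classes. Apod, a lipocalin that binds lipids, gave the reverse picture. It was 10.8-fold higher (3.48 to 54.4) and 12-fold higher (5.41 to 31.3) in the precursors, yet its level there was 6.32, 68.4, 12.2 and 146 CPM against 2361, 14523, 2431 and 15984 CPM in mature oligodendrocytes. Cdkn1a, the cell cycle inhibitor p21, was at 12.6, 62.4, 15.6 and 198 CPM in the precursors, 4.94-fold higher (2.09 to 14.2) and 12.7-fold higher (6.30 to 28.9), and at 17.5, 1549, 11.7 and 1609.5 CPM in mature oligodendrocytes. For Apod and Cdkn1a the part played by free RNA from mature oligodendrocytes was not tested.

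**Figure D4:**
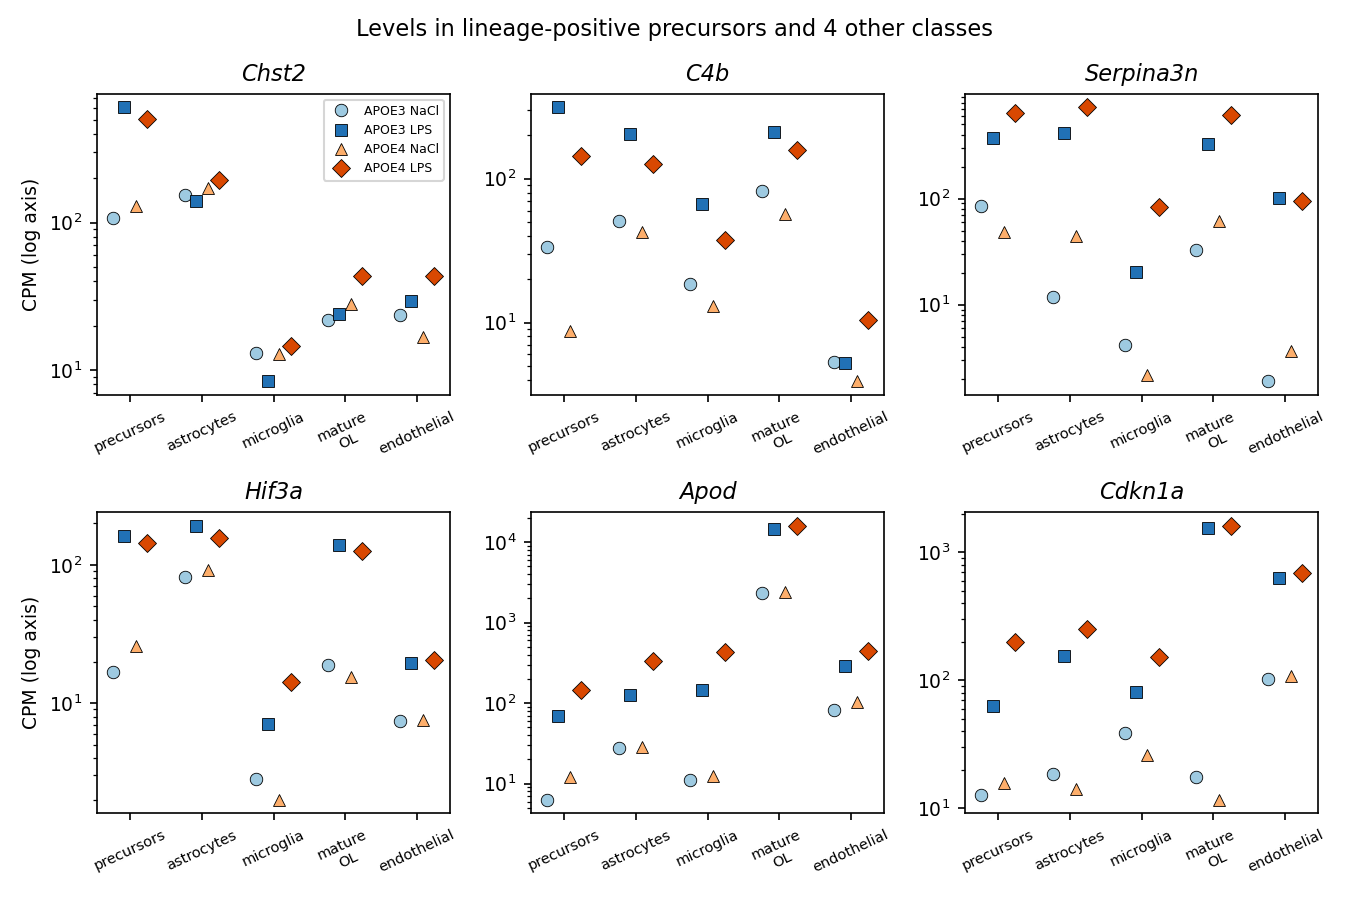
Level (CPM, log axis) of 6 genes in lineage-positive precursors and 4 other cell classes; the symbols are the 4 libraries. Chst2 is highest in LPS precursors (608 and 504 CPM), C4b, Serpina3n and Hif3a reach like levels in precursors, astrocytes and mature oligodendrocytes after LPS, and Apod and Cdkn1a are far higher in mature oligodendrocytes.

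Genes that glucocorticoids are known to raise were higher with LPS in both genotypes. Of 27 listed genes 9 of 17 compared were higher in APOE3 and 12 of 13 in APOE4, with 0 lower and medians of 0.88 and 1.60. Without the cells holding astrocyte markers the medians were 1.28 over 9 genes and 1.34 over 5. Fkbp5, a co-chaperone that dampens the glucocorticoid receptor, was at 29.5, 117, 43.4 and 257 CPM, 3.98-fold higher (2.24 to 7.61) and 5.91-fold higher (3.75 to 9.62). Zbtb16, a zinc finger repressor, was at 35.8, 113, 38.2 and 99.1 CPM, 3.15-fold higher (1.85 to 5.69) and 2.59-fold higher (1.47 to 4.65). Sgk1, a kinase regulating ion transport, was at 173, 389, 189 and 356 CPM, 2.25-fold higher (1.75 to 2.92) and 1.88-fold higher (1.44 to 2.45). All 3 had higher values in both LPS libraries than in either NaCl library.

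Mertk, a receptor for the uptake of apoptotic cells and synapses, was at 116, 425, 159.9 and 312 CPM, 3.67-fold higher (2.74 to 4.99) in APOE3 and 1.95-fold higher (1.46 to 2.61) in APOE4. Klf9 was at 109.6, 175, 78.2 and 239 CPM, 1.60-fold higher (1.15 to 2.26) and 3.06-fold higher (2.10 to 4.50), and Rhob, a small GTPase, at 73.7, 138, 71.3 and 155 CPM, 1.87-fold higher (1.26 to 2.85) and 2.17-fold higher (1.42 to 3.34). Tsc22d3, the leucine zipper protein GILZ, was called in APOE4 alone, where it was 3.05-fold higher (1.39 to 7.05), from 59, 72.8, 19.1 and 58.3 CPM. In mature oligodendrocytes 23 of 27 genes of this list were higher in each genotype, with medians of 1.77 and 2.23, and in astrocytes 16 and 19 of 27, with medians of 0.77 and 0.75. Of all genes compared, 10.0% and 12.6% were higher in mature oligodendrocytes, and 8.01% and 11.4% in astrocytes.

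Acute-phase and NF-kB genes were called higher mainly in APOE4. In APOE3 2 of 5 compared genes were higher and 1 lower, with a median of 0.21, while in APOE4 8 of 9 were higher and 0 lower, with a median of 1.95. Cebpd, a transcription factor of the acute phase, was at 35.8, 41.6, 8.69 and 181 CPM, 20.8-fold higher (8.45 to 66.3) in APOE4 and a ratio of 1.16 (0.614 to 2.26) in APOE3, a difference of 4.05 (2.53 to 5.58) on the log2 scale. Nfkbia, a feedback inhibitor of NF-kB, was at 29.5, 22.3, 17.4 and 70 CPM and 4.03-fold higher (1.86 to 9.44) in APOE4. Nfkbiz, another regulator of NF-kB, was at 16.9, 19.3, 15.6 and 75.8 CPM and 4.85-fold higher (2.20 to 11.8) in APOE4. Neither was called in APOE3. Cp, the ferroxidase ceruloplasmin, was called in both, 1.63-fold higher (1.22 to 2.20) and 1.53-fold higher (1.09 to 2.14), from 143, 233, 134 and 204 CPM.

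Saa3, a secreted acute-phase protein, had 0, 16, 0 and 45 UMIs, and microglia of the same libraries held it at 0.633, 1862, 0.313 and 8205 CPM. Lcn2, a secreted lipocalin that binds iron carriers, had 0, 17, 0 and 23 UMIs, and endothelial cells held it at 22, 3127, 47.8 and 5669 CPM. The part of free RNA from those classes in these UMIs was not tested. Without the cells holding at least 2 astrocyte markers 2 genes of the list were left to compare in each genotype. Their medians were 0.48 in APOE3 and 0.27 in APOE4, so the order of the genotypes turned. Vcam1, an adhesion molecule, was at 67.4, 13.4, 33 and 17.5 CPM and 5.04-fold lower (2.35 to 12) in APOE3. In astrocytes the list had 14 of 26 genes higher in APOE3 and 20 in APOE4, with medians of 0.76 and 1.65. Of all genes compared in astrocytes 8.01% and 11.4% were higher. The receptors for LPS and cytokines were sparse, with 10 of 30 compared in APOE3. There Tnfrsf1a, a receptor of tumour necrosis factor, was 3.25-fold higher (1.21 to 10.9) and Lifr, the receptor of leukaemia inhibitory factor, 1.51-fold higher (1.09 to 2.12), and 0 of 6 were called in APOE4.

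Metallothioneins, metal-binding proteins of the stress response, were higher with LPS in APOE4. Mt2 stood at 189.6, 186, 67.8 and 1572 CPM, 23.2-fold higher (16.7 to 33) in APOE4 with a ratio of 0.980 (0.741 to 1.30) in APOE3, a difference of 4.55 (3.94 to 5.16) on the log2 scale. Mt1 stood at 1125, 1565, 535 and 5497 CPM, 10.3-fold higher (9.10 to 11.6) in APOE4 with a ratio of 1.39 (1.25 to 1.55) in APOE3, a difference of 2.88 (2.65 to 3.11). The APOE4 NaCl library was also the lowest for both, and the genotype contrast in NaCl was 2.80-fold lower (1.90 to 4.19) for Mt2. Astrocytes, the richest class, held Mt1 at 7047, 9788, 7032 and 20275 CPM, and the part of free RNA was not tested.

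Several redox genes were also higher with LPS in APOE4. For Gpx4, Txn1, Sod1 and Fth1, given below, the APOE4 NaCl library was again the lowest. The levels of Gpx4 and Sod1 in APOE4 LPS were close to those in APOE3 NaCl. Of the list of metallothionein and redox genes 0 of 16 were higher and 1 lower in APOE3, with a median of -0.25, and 7 of 14 higher and 0 lower in APOE4, with a median of 0.74. The APOE3 median became 0.37 over 11 genes among cells with at least 5 of 7 markers. It was 0.18 over 3 genes without cells holding astrocyte markers and 0.57 over 4 without cycling and committed cells. Its direction thus depends on which cells are kept. Gpx4, which reduces lipid peroxides, was at 215, 110.0, 108 and 225 CPM, 1.95-fold lower (1.43 to 2.67) in APOE3 and 2.08-fold higher (1.47 to 2.96) in APOE4. Txn1, thioredoxin, was at 56.9, 58, 41.7 and 119.6 CPM and 2.87-fold higher (1.69 to 4.96) in APOE4. Sod1, superoxide dismutase, was at 65.3, 46.1, 33 and 75.8 CPM and 2.30-fold higher (1.22 to 4.39). Fth1, the heavy chain of ferritin and outside that list, was at 773, 754, 542 and 1210.2 CPM, 2.23-fold higher (1.92 to 2.59) in APOE4 and a ratio of 0.975 (0.850 to 1.12) in APOE3.

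Immediate-early genes and chaperones are known to respond to stress, including tissue dissociation. Of the immediate-early list 3 of 6 were higher and 1 lower in APOE3 (median 0.19), and 8 of 8 higher in APOE4 (median 1.65). Without the cells holding astrocyte markers the medians were 1.79 over 3 genes in APOE3 and 0.28 over 2 in APOE4, so the order of the genotypes turned here too. Jun was at 69.5, 107, 97.3 and 312 CPM, 1.54-fold higher (1.01 to 2.40) and 3.21-fold higher (2.30 to 4.51), and Junb at 46.4, 28.2, 19.1 and 105 CPM, 5.49-fold higher (2.73 to 12) in APOE4. The Jun call held in 5 of 10 alternative settings in APOE3 and 9 of 10 in APOE4. Fos stood at 96.9, 60.9, 29.5 and 397 CPM, 13.4-fold higher (8.08 to 23.7) in APOE4. Its value in APOE3 changed direction when the UMIs of its highest cell in each library were left out, from a log2 ratio of -0.66 to 0.18. For these 3 genes the APOE4 LPS library was the highest of the 4.

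Of the chaperones 1 of 16 was higher and 4 were lower in APOE3, and 6 of 16 higher and 0 lower in APOE4. Hsp90aa1, a form of the cytosolic chaperone HSP90, was at 346, 209.6, 242 and 487 CPM, 1.65-fold lower (1.31 to 2.08) in APOE3 and 2.02-fold higher (1.60 to 2.54) in APOE4. Hsp90ab1, the other cytosolic form, was at 419, 317, 301 and 749 CPM, 2.49-fold higher (2.05 to 3.04) in APOE4 with a ratio of 0.755 (0.619 to 0.921) in APOE3. The mitochondrial chaperone Hspd1 was 2.38-fold lower (1.46 to 3.95) and 1.57-fold higher (1.01 to 2.43), from 99, 41.6, 79.9 and 125 CPM. Hspa5, the chaperone of the endoplasmic reticulum, was 1.69-fold higher (1.31 to 2.18) in APOE3 with a ratio of 1.03 (0.778 to 1.35) in APOE4, from 189.6, 319.6, 247 and 254 CPM. Actb, cytoskeletal actin, was at 1273, 884, 1149 and 2546 CPM and 2.22-fold higher (2 to 2.46) in APOE4. Cfl1, the actin-severing protein cofilin, was at 145, 152, 162 and 376 CPM and 2.33-fold higher (1.77 to 3.07).

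Precursor identity genes outside the rule were called lower with LPS more often in APOE4 than in APOE3. Of 33 listed genes 5 of 32 compared were higher with LPS and 0 lower in APOE3 (median 0.18), and 3 of 31 higher and 8 lower in APOE4 (median -0.32). The medians were 0.058 and -0.147 with at least 5 of 7 markers, which 124, 186, 149 and 54 lineage-positive cells held. They were -0.018 and -0.205 without cells holding astrocyte markers, and -0.067 and -0.553 without cycling and committed cells. The size of the gap thus depends on which cells are kept. The difference of the LPS effects was called lower for 12 of 32 and higher for 0 of 32, beside 6.66% lower and 10.0% higher of 6878 genes compared in all. Olig1, which also helped to define the lineage-positive cells, was at 735, 1139, 949 and 839.8 CPM, 1.55-fold higher (1.36 to 1.76) in APOE3 with a ratio of 0.885 (0.765 to 1.02) in APOE4. The Olig1 call in APOE3 held in 4 of 10 alternative settings. Matn4, a matrilin of the matrix, was at 455, 553, 511 and 283 CPM, 1.81-fold lower (1.43 to 2.30) in APOE4 with a ratio of 1.21 (1.02 to 1.44) in APOE3. Olig2 was at 346, 493, 464 and 394 CPM and Sox10 at 213, 262, 294 and 365 CPM, and neither was called.

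The 7 markers of the rule are given as a description, since they chose the cells. Pdgfra was at 1519, 2029, 1969 and 1143 CPM and Cspg4 at 469.9, 562, 598 and 279.9 CPM. C1ql1, a secreted C1q-like protein, was at 236, 209.6, 372 and 157 CPM, Cacng4, an AMPA receptor subunit, at 601, 578, 605 and 362 CPM and Lhfpl3, a tetraspan protein, at 4037, 3703, 4211 and 3773 CPM. Tnr was at 2712, 3233, 2928 and 2692 CPM and Vcan at 1089, 1504, 1114 and 1059 CPM. Pdgfra, Cspg4, C1ql1 and Cacng4 were lowest in APOE4 LPS, while Lhfpl3, Tnr and Vcan varied little among the NaCl libraries and APOE4 LPS.

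Nkx2-2, a transcription factor of the lineage, was at 90.6, 71.3, 118 and 55.4 CPM and 2.13-fold lower (1.27 to 3.76) in APOE4. Sox8, a relative of Sox10, was at 84.3, 90.7, 127 and 64.2 CPM and 1.98-fold lower (1.21 to 3.35). Xylt1, which starts the chondroitin and heparan sulfate chains, was at 1593, 1833, 1727 and 1091 CPM and 1.58-fold lower (1.40 to 1.79) in APOE4. Ednrb, the endothelin receptor that keeps precursors from differentiating, was at 386, 265, 429 and 146 CPM, 2.94-fold lower (2.17 to 4.07) in APOE4 with a ratio of 0.686 (0.555 to 0.848) in APOE3. The LPS library was the lower of the pair in both genotypes, as it was in astrocytes, where Ednrb stood at 472, 260.5, 432 and 237 CPM.

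Growth factor receptors and their feedback genes did not move as 1 group. In APOE3 4 of 29 compared genes were higher and 2 lower, and in APOE4 5 of 27 higher and 3 lower. Ccnd1, the cyclin that growth factors raise in G1, was at 129, 104, 162 and 557 CPM, 3.45-fold higher (2.68 to 4.46) in APOE4 with a ratio of 0.810 (0.566 to 1.16) in APOE3, and its difference was 2.09 (1.48 to 2.70) on the log2 scale. That call held in 10 of 10 alternative settings, of which the pseudocount could not alter it. Spry2, a feedback inhibitor of receptor signalling, was at 94.8, 114, 103 and 227 CPM and 2.22-fold higher (1.56 to 3.17) in APOE4. Dusp6, a phosphatase that acts on ERK, was at 35.8, 34.2, 29.5 and 70 CPM and 2.37-fold higher (1.22 to 4.70).

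The fibroblast growth factor receptor Fgfr3 was higher in both genotypes, 1.96-fold higher (1.32 to 2.97) and 2.98-fold higher (1.82 to 4.97), from 73.7, 144, 46.9 and 140.0 CPM. It is also 1 of the astrocyte markers described below. Erbb3, a neuregulin receptor, was 1.89-fold higher (1.21 to 3.03) in APOE3, from 59, 111, 62.6 and 64.2 CPM. Kit, the receptor of stem cell factor, was at 54.8, 41.6, 60.8 and 11.7 CPM and 5.21-fold lower (1.86 to 20.2) in APOE4, where it rested on 4 UMIs. Outside the list, Pdgfd, a platelet-derived growth factor, was at 37.9, 75.8, 27.8 and 17.5 CPM, 2-fold higher (1.15 to 3.64) in APOE3 and 4.33-fold lower (1.86 to 12.4) in APOE4 than in APOE3 after LPS.

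Brakes on differentiation that were called in APOE4 were mostly lower. There 1 of 15 compared genes was higher and 5 lower (median -0.32), and in APOE3 1 of 17 was higher and 2 lower. Hes5, a repressor downstream of Notch, was lower in both genotypes, at 133, 49.1, 236 and 75.8 CPM, 2.71-fold lower (1.75 to 4.26) and 3.12-fold lower (2.04 to 4.94). It was lower in LPS astrocytes as well, at 365, 162, 399 and 119 CPM. Jag1, a Notch ligand, was at 94.8, 31.2, 60.8 and 32.1 CPM and 3.04-fold lower (1.77 to 5.37) in APOE3. Its APOE3 NaCl level was 89.4% of that in endothelial cells, the richest other class, and the part of their RNA was not tested. Id2, an inhibitor of basic helix-loop-helix factors, went the other way, 2.31-fold higher (1.55 to 3.55) and 2.91-fold higher (2.10 to 4.07), from 67.4, 156, 104 and 303 CPM.

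Gpr17, a receptor of committed precursors that holds back their maturation, was at 469.9, 424, 653 and 271 CPM, 2.41-fold lower (1.92 to 3.06) in APOE4 with a ratio of 0.902 (0.754 to 1.08) in APOE3, and its difference was -1.11 (-1.53 to -0.70). The 4 other classes held at most 5.35 CPM of it. It was found in 51.9%, 44.4%, 50% and 30.2% of thinned precursors, with APOE4 LPS the lowest. Neu4, a sialidase of the same stage, was 1.56-fold higher (1.29 to 1.90) in APOE3 and 1.51-fold lower (1.16 to 1.98) in APOE4, from 322, 504, 348 and 230.4 CPM. The Neu4 calls held in 5 of 10 alternative settings in APOE3 and 7 of 10 in APOE4. Gpr17 and Neu4 belong to the committed state described next.

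Fewer precursors counted as committed in the APOE4 LPS library. A cell was counted when it held at least 3 of Gpr17, Neu4, Bmp4, Enpp6, Bcas1, Tcf7l2, Itpr2 and Myrf, which mark exit from the precursor state. Among lineage-positive cells these were 60.7% (52.1 to 68.9), 62.6% (55.7 to 69.1), 65.6% (57.8 to 72.9) and 36.7% (26.1 to 48.3). With every cell thinned to 1500 UMIs, which left out 11, 33, 11 and 16 shallower cells, the shares were 32.6%, 41.6%, 37.5% and 23.8%. The APOE4 LPS library was lowest either way, but its thinned interval (14.0 to 36.2) overlapped those of all 3 other libraries. Cycling cells, with at least 3 of 10 mitotic genes, numbered 0 of 140, 2 of 211, 4 of 163 and 1 of 79. A count of 0 of 140 allows a share of up to 2.60%.

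The longer list of committed genes was mixed, with 6 of 20 higher and 4 lower in APOE4 and 4 of 24 higher and 3 lower in APOE3. Bcas1 was 1.80-fold higher (1.49 to 2.19) in APOE3, from 318, 572, 370.2 and 484 CPM. Nfasc, the adhesion protein neurofascin, was 2.14-fold higher (1.57 to 2.96) and 2.90-fold higher (2.15 to 3.92), from 116, 248, 127 and 367 CPM. Frmd4a was 2.07-fold higher (1.66 to 2.60) and 1.74-fold higher (1.39 to 2.17), from 229.7, 476, 283 and 493 CPM. Myelin genes were compared for 15 genes in APOE3, with 3 higher, and 13 in APOE4, with 7 higher and 0 lower (medians 0.15 and 0.89). The APOE4 median was -0.12 among cells with at least 5 of 7 markers, so this direction depends on which cells are kept.

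Mbp, myelin basic protein, was at 71.6, 72.8, 78.2 and 146 CPM, and its APOE4 log2 ratio went from 0.89 to -0.61 among cells with at least 5 markers. Cryab, a small heat-shock protein of oligodendrocytes, was 3.22-fold higher (2.27 to 4.63) in APOE4, from 99, 110.0, 86.9 and 279.9 CPM. It was called in 10 of 10 alternative settings. Its level in APOE4 LPS was 23.2% of that in mature oligodendrocytes. In mature oligodendrocytes 4 of 26 myelin genes were higher and 12 lower in APOE3, and 2 higher and 14 lower in APOE4, beside 15.3% and 11.9% of all genes lower. Myelin genes were higher after LPS in APOE4 in cells that do not make myelin, with 17 of 26 higher in microglia and 14 of 21 in endothelial cells (medians 0.83 and 0.88), beside 18.4% and 12.9% of all genes compared in those classes, and the part of free myelin RNA in the precursors was not tested.

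Matrix, guidance and synaptic genes had more members lower than higher with LPS in APOE4, and guidance genes had this in APOE3 as well. Beside them stand 9.93% of all genes compared higher and 9.40% lower in APOE4, and 6.15% and 8.20% in APOE3. Of the matrix and proteoglycan genes 4 of 29 were higher and 3 lower in APOE3, and 2 of 29 higher and 9 lower in APOE4 (medians 0.08 and -0.35). Ptn, the secreted ligand pleiotrophin, was at 2038, 1683, 2519.9 and 1079 CPM, 2.34-fold lower (2.08 to 2.63) in APOE4 with a ratio of 0.826 (0.757 to 0.901) in APOE3. Its level was lower after LPS in astrocytes too, at 2129, 932, 2342 and 941 CPM, and in mature oligodendrocytes, at 1534, 685, 1527 and 597 CPM. Acan, the proteoglycan aggrecan, was at 16.9, 62.4, 31.3 and 37.9 CPM and 3.70-fold higher (1.72 to 9.13) in APOE3. Sparc, a collagen-binding protein, was 2.10-fold higher (1.61 to 2.76) and 2.22-fold higher (1.65 to 3), from 158, 331, 141 and 312 CPM.

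Col9a3, a chain of collagen IX, was lower in both genotypes, 2.03-fold lower (1.29 to 3.21) and 2.70-fold lower (1.47 to 5.38), from 105, 52, 103 and 37.9 CPM. Sdc3, a heparan sulfate proteoglycan, was 2.09-fold lower (1.61 to 2.74) in APOE4, from 472, 339, 457 and 219 CPM. Among guidance genes 1 of 28 was higher and 6 lower in APOE3, and 1 of 24 higher and 7 lower in APOE4. The transmembrane semaphorins Sema5a and Sema6a were lower in both, Sema5a 1.65-fold lower (1.34 to 2.03) and 1.69-fold lower (1.30 to 2.23), from 432, 262, 370.2 and 219 CPM. Sema6a was at 223, 143, 226 and 128 CPM, 1.57-fold lower (1.18 to 2.08) and 1.76-fold lower (1.24 to 2.54). Sema3d, a secreted semaphorin, was 1.55-fold higher (1.31 to 1.85) in APOE3, from 415, 645, 424 and 487 CPM.

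Receptors and channels that let precursors sense neuronal activity were 2 higher and 1 lower of 41 in APOE3, and 2 higher and 6 lower of 40 in APOE4 (median -0.33). Grm7, a metabotropic glutamate receptor, was at 394, 263, 424 and 207 CPM and 2.05-fold lower (1.57 to 2.71) in APOE4, and Gabbr1, a subunit of the GABA-B receptor, at 202, 159, 215 and 114 CPM and 1.89-fold lower (1.31 to 2.79). Lipid genes were 7 higher and 3 lower of 25 in APOE3, and 2 higher and 2 lower of 22 in APOE4. Abca1, which exports cholesterol to apolipoproteins, was at 251, 419, 261 and 210.0 CPM, 1.67-fold higher (1.34 to 2.09) in APOE3 with a ratio of 0.805 (0.599 to 1.07) in APOE4, and Lrp1, an endocytic receptor for them, at 567, 697, 742 and 440.3 CPM, 1.69-fold lower (1.40 to 2.04) in APOE4 with a ratio of 1.23 (1.06 to 1.43) in APOE3.

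Metabolic lists had few calls. Cholesterol synthesis had 0 higher and 2 lower of 8 in APOE3 and 0 higher and 1 lower of 9 in APOE4, glycolysis 2 higher and 3 lower of 15 and 2 higher and 0 lower of 13, and the circadian clock 1 higher and 2 lower of 14 and 1 higher and 1 lower of 10. Vegfa, the vascular growth factor that hypoxia raises, was lower in both genotypes, at 229.7, 107, 235 and 119.6 CPM, 2.15-fold lower (1.58 to 2.93) and 1.96-fold lower (1.37 to 2.86). Nr2f2, a nuclear receptor, was at 92.7, 14.9, 41.7 and 55.4 CPM and 6.24-fold lower (3.09 to 13.9) in APOE3. Its APOE3 NaCl level was 63.9% of that in endothelial cells, the richest other class. Mural markers, given below, were also highest in that library, and the part of RNA from other cell types was not tested. Cpxm1 was lower in both, 2.91-fold lower (1.64 to 5.33) and 2.49-fold lower (1.27 to 5.34), from 82.2, 28.2, 79.9 and 32.1 CPM. Cell cycle genes were 1 higher and 8 lower of 13 in APOE4 with a median of -2.01 (-1.94 with libraries at 0 UMIs set to a floor of 3 counts). Without cycling and committed cells that median was 2.21. The APOE4 NaCl library held the largest number of cycling cells, 4.

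**Figure D5:**
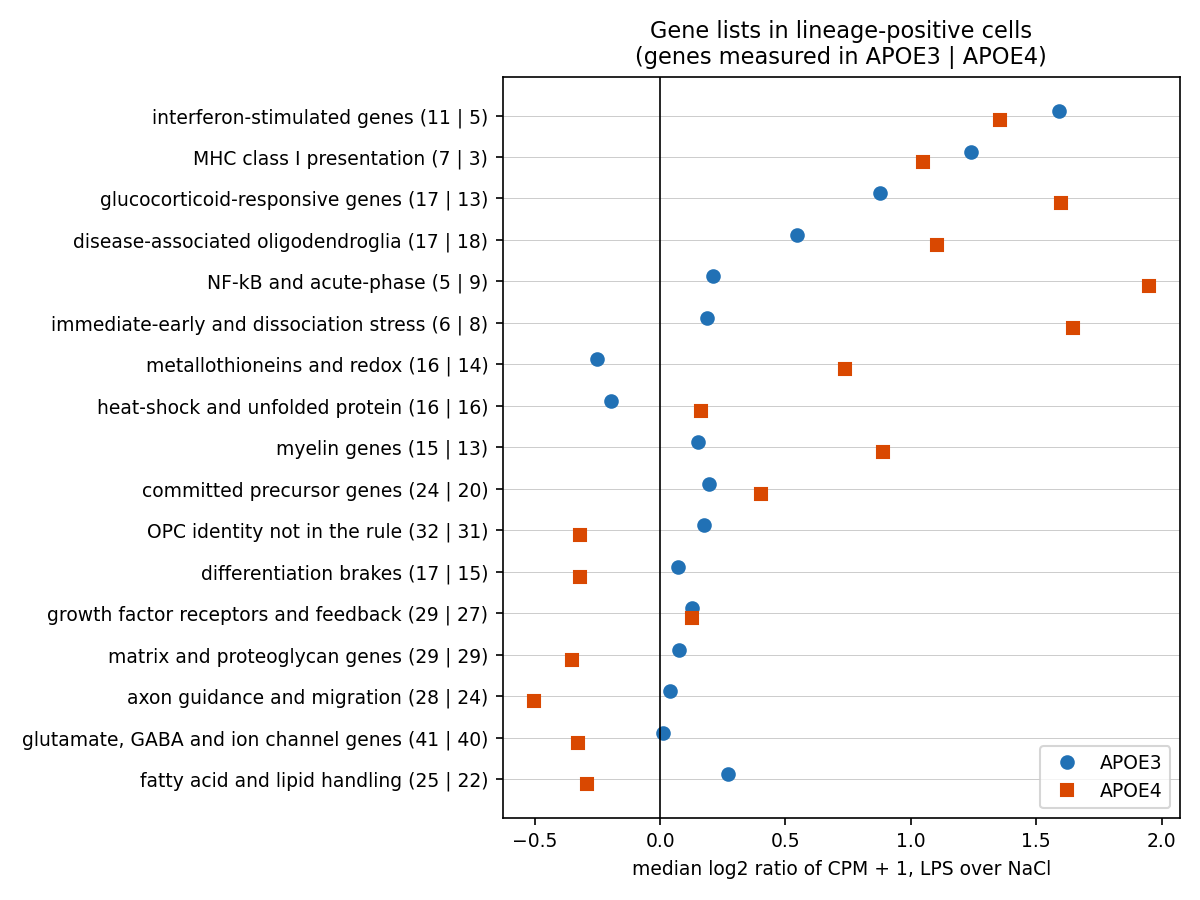
Median log2 ratio of CPM + 1, LPS over NaCl, of the compared genes of 17 lists in lineage-positive precursors of APOE3 (circles) and APOE4 (squares), with the number of genes compared in each. Interferon, class I and glucocorticoid lists lie to the right of 0 in both genotypes, while NF-kB, immediate-early and redox lists lie farther to the right in APOE4 (1.95, 1.65 and 0.74) than in APOE3 (0.21, 0.19 and -0.25). For the NF-kB and immediate-early lists this order turned without cells with at least 2 astrocyte markers. The APOE3 redox median changed sign without those cells (0.18 over 3 genes).

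More genes were called between the genotypes after LPS than after NaCl. The genotype contrast called 228 genes higher and 392 lower in APOE4 of 6121 after NaCl (3.72% and 6.40%), and 542 higher and 426 lower of 6236 after LPS (8.69% and 6.83%). This difference in counts was not tested. Each genotype contrast shares its libraries with the LPS contrasts above and is no independent support for them. Of the 16 genes named in the NaCl contrast 0 kept the call in all of 10 alternative settings, against 11 of 20 in the LPS contrast.

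With NaCl the named genes were of moderate level. Nsg1, an endosomal protein, was at 71.6, 66.9, 148 and 137 CPM and 2.06-fold higher (1.37 to 3.17) in APOE4, and Slc35a3, a Golgi transporter of UDP-N-acetylglucosamine, at 71.6, 40.1, 26.1 and 35 CPM and 2.75-fold lower (1.46 to 5.43). These were the 2 that kept the call in 9 of the 10 settings. Tmem100 was 1.76-fold higher (1.36 to 2.30) in APOE4, from 183, 195, 323 and 204 CPM, and changed direction without cycling and committed cells. Metallothionein and redox genes were 0 higher and 6 lower of 15 in APOE4 after NaCl, glucocorticoid-responsive genes 0 higher and 4 lower of 11, and cell cycle genes 11 higher and 0 lower of 13. Cycling cells numbered 4 of 163 in APOE4 NaCl and 0 of 140 in APOE3 NaCl, so the cell cycle counts may rest on few cells. Of those 13 genes 3 had 0 UMIs in a library of the pair. Precursor identity genes were 1 higher and 1 lower of 32.

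After LPS, acute-phase and NF-kB genes were 6 higher and 0 lower of 9 in APOE4, immediate-early genes 8 higher and 1 lower of 9, and disease-associated genes 9 higher and 1 lower of 18. Precursor identity genes were 1 higher and 7 lower of 31, and glutamate, GABA and ion channel genes 0 higher and 8 lower of 41. Interferon-stimulated genes were 1 higher and 2 lower of 11, and class I genes 0 of 7 either way.

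The single genes higher in APOE4 after LPS included Ccnd1, 5.35-fold higher (4.05 to 7.14), Cebpd, 4.34-fold higher (2.74 to 7.05), and Actb, 2.88-fold higher (2.59 to 3.20). Nap1l1, a histone chaperone, was at 80.1, 49.1, 79.9 and 149 CPM and 3.03-fold higher (1.92 to 4.85). Among the genes lower in APOE4, Fgf13, an intracellular regulator of sodium channels, was at 94.8, 137, 141 and 37.9 CPM and 3.61-fold lower (2.01 to 7.03), and Edil3, an integrin-binding matrix protein, at 563, 754, 579 and 338 CPM and 2.23-fold lower (1.82 to 2.75). Lrrn1, a leucine-rich repeat membrane protein, was at 204, 309, 328 and 117 CPM, 2.65-fold lower (1.88 to 3.82) in APOE4. Nell2 was 2.92-fold lower (2.04 to 4.28) in APOE4. For Lrrn1 the LPS effect was 1.51-fold higher (1.18 to 1.95) in APOE3 and 2.82-fold lower (1.99 to 4.07) in APOE4.

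The difference of the LPS effects was called higher in APOE4 for 688 genes and lower for 458 of 6878 (10.0% and 6.66%). It was called for 9 of 17 metallothionein and redox genes, 8 of 9 immediate-early genes and 5 of 10 acute-phase and NF-kB genes, all of these higher. For interferon-stimulated genes it was 1 higher and 1 lower of 12, and for class I genes 0 of 7. Trimmed-mean scaling moved the share of higher calls from 60.0% to 48.5%. Among genes with a lower effect in APOE4 were Itga9, an integrin subunit, at 232, 375, 316 and 166 CPM with a difference of -1.61 (-2.14 to -1.07), and Sez6l at 209, 263, 276 and 108 CPM with -1.67 (-2.30 to -1.05). Those with a higher effect included Foxo1, a transcription factor of growth arrest, at 56.9, 53.5, 15.6 and 87.5 CPM with 2.52 (1.25 to 3.79). Slc22a17, a membrane protein reported to take up the product of Lcn2, was at 560.5, 499, 688 and 274 CPM and 2.51-fold lower (2 to 3.18) in APOE4, with a difference of -1.16 (-1.55 to -0.76).

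Markers of other cell types moved with LPS in the same cells. Cells with at least 2 of 7 astrocyte markers were 26.4% (19.3 to 34.5), 50.2% (43.3 to 57.2), 28.8% (22 to 36.4) and 57.0% (45.3 to 68.1) of lineage-positive cells. Those markers include Fgfr3, described above among the growth factor receptors, and Slc1a2. A UMI of Slc1a2 was found in 78.6%, 82.5%, 84.0% and 75.9% of lineage-positive cells. Most cells thus needed only 1 further marker to be counted. Gfap, the intermediate filament of reactive astrocytes, had 3, 37, 1 and 13 UMIs in the precursors, against 135, 292, 48.4 and 400.5 CPM in astrocytes. The 13 astrocyte markers summed to 3388, 5136, 3057 and 4036 CPM, with 0 of them at 0 UMIs in any library. Of the astrocyte markers compared 6 of 13 were higher and 1 lower in APOE3, and 6 of 11 higher in APOE4. Without the cells holding at least 2 such markers 103, 105, 116 and 34 cells were left, and 12 of 56 list medians moved by at least 1.5-fold and 14 changed sign. In APOE4 the complement median went from 1.83 over 2 genes to -0.99 for 1 gene. The part of astrocyte RNA or of mixed droplets in these results was not tested.

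The 11 microglial markers outside the rule summed to 1749, 2256, 2037 and 1930 CPM, of which Cst3, a protease inhibitor that other glia also express, gave 1599, 1980, 1865 and 1636 CPM. Counting also C1qa and Ctss, which the rule used, 6 of 7 compared were higher in APOE3, and 3 of 5 higher and 1 lower in APOE4, with C1qa higher in both. C1qa was at 16.9, 60.9, 20.9 and 75.8 CPM in the precursors against 5655, 9754, 5772 and 6657 CPM in microglia. Of all 13 microglial markers, 8 of 13 were higher after LPS in astrocytes in APOE3 and 11 of 13 in APOE4, and in endothelial cells 11 of 12 in APOE4. Of all genes compared, 8.01% and 11.4% were higher in astrocytes, and 12.9% in endothelial cells in APOE4. Choroid plexus markers were lower with LPS, 6 of 6 in APOE3 and 4 of 4 in APOE4, and Ttr, their most abundant transcript, gave 6368, 1521, 11320 and 1086 UMIs. Neutrophil markers summed to 4.21, 43.1, 5.21 and 75.8 CPM, with 7 or 8 of 10 at 0 UMIs in each library. Cd74, the class II chaperone, had 0, 0, 1 and 1 UMIs. Mural markers summed to 584, 95.1, 43.4 and 84.6 CPM, and red cell markers to 4014, 2763, 64.3 and 111 CPM. The 10 mature oligodendrocyte markers outside the rule, Trf among them, summed to 617, 644, 608 and 1222 CPM, highest in APOE4 LPS. The part of these cell types in the results was not tested.

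Over all 798 cells of the rule, many of the leading genes were those of neurons, red cells, choroid plexus, mural cells or single cells. LPS against NaCl gave 6.41% of 9694 compared genes higher and 8.63% lower in APOE3, and 8.57% higher and 10.6% lower in APOE4. The genotype contrast gave 4.89% higher and 6.28% lower after NaCl and 8.63% higher and 8.04% lower after LPS, and the difference of the LPS effects was called higher for 10.8% and lower for 8.64%. Trimmed-mean scaling moved the share of higher calls from 42.6% to 55.2% for LPS in APOE3 and from 55.6% to 43.7% for the difference. Hif3a, C4b, Serpina3n and Chst2 were among the 10 leading higher genes in APOE3, and Serpina3n, Mt2, C4b and Cebpd among those in APOE4.

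In both genotype contrasts 4 of the 5 leading genes lower in APOE4 were haemoglobin genes of red cells. Choroid plexus and mural genes (Ttr, Kl, Prlr, Htr2c, Tagln and Acta2) were 6 of the 10 leading genes lower with LPS in APOE3. Htr2c, a serotonin receptor, had 278, 59, 247 and 158 UMIs over all cells and 150, 4, 59 and 1 in lineage-positive cells, and Acta2, smooth muscle actin, had 103, 2, 153 and 7 over all cells and 97, 2, 0 and 7 in lineage-positive cells. Ttr, Htr2c and Acta2 were called lower with LPS in APOE3 in lineage-positive cells too. Among the genes of neurons, Tac2, a tachykinin neuropeptide, had 33, 346, 60 and 112 UMIs over all cells and 0, 0, 0 and 2 in lineage-positive cells. Sst, somatostatin, had 2, 21, 1077 and 0 UMIs and 0, 3, 2 and 0 in lineage-positive cells, and Cartpt had 40, 2, 2 and 236 and 0, 0, 0 and 0. S100a8, a neutrophil gene, had 0, 5, 2 and 162 UMIs and 0, 5, 2 and 3 in lineage-positive cells. A single cell held 89.0% of the Sst UMIs in APOE4 NaCl and 96.9% of the S100a8 UMIs in APOE4 LPS, which makes these values those of single cells.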

How the data were processed

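Whole-number UMI counts per gene and barcode were used as the authors deposited them, and per the file headers Cell Ranger 7.0.1 had made them (7.0 and mm10 per the submitters' processing notes), with 32285 genes and 74993 barcodes in 4 libraries. Deposited library totals ran from 73288965 to 114378032 UMIs. Barcodes passed the quality filter and marker rule of the report, and UMIs were summed over the cells of a library. Ratios of CPM carry exact conditional binomial 95% intervals, the difference of LPS effects an approximate interval with 0.5 added to each sum, and list medians use log2 of CPM + 1. Sums with 0 counts were given no floor, except where a median with a floor of 3 counts is stated. Comparison classes needed at least 4 of 7 class markers and 2 more than any other class. Doublets were called with Scrublet in scanpy 1.11.5. The code was tested on simulated data.

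The members and gene lists were chosen with earlier results of these data known. Named genes over all members held at least 50 UMIs in 1 library of a pair and at least 20% of the level of the highest other class, the 10 with the largest bound in each direction (5 for genotype). Over lineage-positive cells, a rule added after seeing the data required 30 UMIs in 15 cells. Up to 4 genes per list were also named, and others were chosen after their values were seen. Alternatives covered the marker number, exclusions, depth, doublets, fold, pseudocount and trimmed-mean scaling (edgeR 4.0.16 in R 4.3.3). Python 3.11.15, numpy 2.4.6, scipy 1.17.1 and pandas 2.3.3 were used. Barcodes below the filter were left out, and some genes are not reported here.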

Additional observations from a re-analysis of the deposited data

Results flagged for a closer look

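In lineage-positive precursors 11 genes were called in opposite directions with LPS in the 2 genotypes, by the fold and counting interval described above. With 1 library per group this difference between genotypes was not tested, and its values are log2 differences of the LPS effect, APOE4 minus APOE3, with counting intervals.

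Lower with LPS in APOE3 and higher in APOE4 were 7 genes. Fos, an immediate-early transcription factor, had a difference of 4.38 (3.44 to 5.32), and its APOE3 direction depended on few cells, as given below. Igsf11, an adhesion protein, had 2.52 (1.40 to 3.63), from 80.1, 46.1, 26.1 and 87.5 CPM, taking NaCl before LPS and APOE3 before APOE4. Pdcd4, an inhibitor of translation, had 2.14 (1.49 to 2.79), from 160.1, 96.6, 115 and 306 CPM. Gpx4 had 2.02 (1.38 to 2.67) and the chaperones Hspd1 and Hsp90aa1 1.89 (0.99 to 2.79) and 1.73 (1.27 to 2.19). Cops9, a subunit of the COP9 signalosome, had 1.83 (0.86 to 2.80), from 112, 56.5, 45.2 and 81.7 CPM.

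Higher with LPS in APOE3 and lower in APOE4 were 4 genes. Lrrn1 had a difference of -2.07 (-2.67 to -1.47), and its APOE4 call held in 10 of 10 alternative settings, against 3 of 10 for its APOE3 call. Itga9 had -1.61 (-2.14 to -1.07), and Neu4, the sialidase of committed precursors, -1.23 (-1.69 to -0.76). The Neu4 calls held in 5 of 10 settings in APOE3 and 7 of 10 in APOE4. The unnamed transcript Gm33680 had -1.79 (-2.63 to -0.96), from 99, 168, 134 and 64.2 CPM.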

How the results depend on the processing

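No paired analysis was possible because each group has 1 library, and no replicate could be left out. The deeper libraries and the number of cells set the precision, and the cause of a change below was not tested beyond the smaller number of cells or genes that an alternative leaves. Shares of precursors among quality barcodes, 1.31%, 1.73%, 1.75% and 0.654% in APOE3 (NaCl, then LPS) and APOE4 (NaCl, then LPS), became 0.9997%, 1.49%, 1.38% and 0.434% with at least 4 markers, 0.923%, 1.33%, 1.24% and 0.324% with 5, 3.08%, 2.89%, 3.66% and 1.35% with 2, 1.01%, 1.19%, 1.38% and 0.368% with no UMI of an excluded gene, and 0.972%, 1.40%, 1.25% and 0.434% for lineage-positive cells. With 2000 UMIs they were 1.07% in APOE3 NaCl and 1.30% in APOE3 LPS, and with barcodes thinned to 1000 UMIs 1.06% in APOE3 NaCl, 1.40% in APOE4 NaCl and 0.489% in APOE4 LPS. APOE4 LPS was lowest each time. Committed shares of all members, 48.7%, 55.6%, 50.2% and 27.7%, became 72.0%, 77.4%, 74.2% and 48.7% with 2 genes, 25.6%, 34.8%, 27.2% and 17.0% in cells thinned to 1500 UMIs, and 60.7%, 62.6%, 65.6% and 36.7% in lineage-positive cells. The cycling share of 0.840% in APOE4 LPS became 0% after thinning.

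Counts of called genes over all members, in the order LPS in APOE3, LPS in APOE4, genotype after NaCl, genotype after LPS and the difference of the LPS effects, were 1458, 1913, 1133, 1553 and 2039. They fell to 931, 1131, 620, 968 and 1146 in lineage-positive cells, 626, 922, 571, 799 and 731 with 5 markers, 360, 526, 246, 511 and 532 without cells with neuron or astrocyte markers, 422, 538, 230, 519 and 528 after thinning, and 661, 1019, 560, 688 and 1318 at 2-fold. With at least 50 UMIs the first 4 were 887, 1249, 604 and 991. With 4 markers LPS in APOE3 gave 828 and genotype after NaCl 672, and with no UMI of an excluded gene LPS in APOE4 gave 1267. In lineage-positive cells the same 5 counts were 335, 405, 172, 353 and 285 after thinning. Without astrocyte-marker cells LPS gave 335 and 549, genotype after LPS 527 and the difference 488. Without cycling and committed cells LPS gave 328 and 714, genotype after NaCl 157 and the difference 527. At 2-fold the first 4 counts were 458, 638, 360 and 469. Without the highest cell of each gene in each library genotype after NaCl gave 411, and the difference gave 708 with 5 markers and 717 without called doublets.

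Of list medians at least 1.5-fold from no change and of called named genes 20 values changed sign, given next, and a further 162 of 1437 list-median values changed sign from a smaller main value, such as the immediate-early median in APOE3, from 0.19 over 6 genes to -3.74 over 2 without cycling and committed cells. Over all members with LPS in APOE4, the myelin median of 0.63 became -0.059 with 5 markers, the cell cycle median of -0.79 became 0.11 without cycling and committed cells and 0.40 after thinning, the chemokine median of 0.72 became -0.031 with no UMI of an excluded gene, -0.57 without neuron or astrocyte markers and -0.47 after thinning, and the complement median of 1.44 became -0.39 without neuron or astrocyte markers. In lineage-positive cells with LPS in APOE4, the myelin median became -0.12 with 5 markers, the cell cycle median 0.13 after thinning and 2.21 without cycling and committed cells, and without astrocyte-marker cells the interferon median became -0.51, the complement median -0.99 and the p53 median -0.86. Fos in APOE3 went from -0.66 to 2.28 without called doublets and 0.18 without its highest cell in each library, and Jund in APOE4 from 1.62 to -0.37 without astrocyte-marker cells. In APOE4 Mbp went from 0.89 to -0.61 with 5 markers, -0.63 without cycling and committed cells and -0.086 without its highest cell in each library. Tmem100 in the NaCl genotype contrast went from 0.81 to -0.11 without cycling and committed cells. Of the named genes 14 of 47 kept their call in all 10 alternatives for LPS in APOE3, 17 of 50 for LPS in APOE4, 0 of 16 for genotype after NaCl, 11 of 20 for genotype after LPS and 6 of 20 for the difference. The pseudocount alternative could not alter a call.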

Other observations

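Further gene groups of the lineage-positive precursors gave values outside the comparisons above, taking NaCl before LPS and APOE3 before APOE4. Beside the counts below, 6.15% of all genes compared were higher with LPS and 8.20% lower in APOE3. In APOE4 these shares were 9.93% and 9.40%. Of 16 genes of iron handling 2 of 9 compared were higher with LPS and 2 lower in APOE3, and 5 of 7 higher and 0 lower in APOE4. Trf, the iron carrier transferrin that oligodendrocytes make, stood at 44.2, 40.1, 53.9 and 166 CPM and was 3.09-fold higher (1.96 to 4.94) in APOE4. Trf is also counted above among the mature oligodendrocyte markers, and the iron list holds Lcn2 as well. The part of free RNA in either was not tested. Ftl1, the light chain of ferritin, stood at 242, 279, 210.3 and 324 CPM and was 1.54-fold higher (1.18 to 2.01). Ireb2, a regulator of iron-responsive transcripts, was 2.35-fold higher (1.30 to 4.51) in APOE3, from 31.6, 74.3, 69.5 and 52.5 CPM.

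Of 27 genes of p53 signalling and growth arrest 1 of 9 compared was higher with LPS and 1 lower in APOE3, and 4 of 8 higher and 0 lower in APOE4. Cdkn1b, the cell cycle inhibitor p27, stood at 46.4, 40.1, 40 and 99.1 CPM and was 2.48-fold higher (1.42 to 4.41) in APOE4. Bcl2l1, which protects against apoptosis, stood at 44.2, 59.5, 17.4 and 87.5 CPM and was 5.03-fold higher (2.40 to 11.5). Stat3, the transcription factor downstream of the receptor chain gp130, stood at 96.9, 114, 78.2 and 160.4 CPM and was 2.05-fold higher (1.36 to 3.11) in APOE4.

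Chemokines and cytokines were sparse, with 5 of 36 genes compared in APOE3 (1 higher, 0 lower) and 7 in APOE4 (3 higher, 0 lower). Il18, a cytokine of the interleukin-1 family, stood at 84.3, 135, 130.3 and 111 CPM and was 1.60-fold higher (1.10 to 2.39) in APOE3. Ccl2, a chemokine for monocytes, had 1, 0, 1 and 21 UMIs, which lay in 1, 0, 1 and 4 cells. Ccl5, a chemokine for T cells, had 1, 7, 0 and 26 UMIs in 1, 7, 0 and 13 cells. Regional patterning genes, which differ between brain regions, had 1 of 7 higher and 1 lower in APOE3 and 1 of 6 higher in APOE4.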
